A study of Mus musculus with 46 samples.

Results

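The comparison was between mutant and wild-type (WT) striatum from hypothyroid mice, in 8 of the 46 RNA-seq libraries of the series. The members were chosen from the sample labels alone: the 4 striatum libraries of mutant mice given propylthiouracil (PTU), and the 4 of WT mice given PTU. The mutant mice were HrDR5/DR5, homozygous for an allele that removes a single nucleotide at the hairless gene, Hr. All were adult mice fed PTU in low-iodine food for 15 days, and 1 ug of total RNA went into each library. Untreated striatum, and striatum after PTU with thyroid hormone (TH) added for the last 24 hours (PTU+TH), with 4 libraries per genotype each, made up the other 16 libraries of the fit. The labels give no sex or exact age, and nothing in them says that the 4 libraries of a group came from separate mice, so the p-values measure the spread between these libraries.

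TH enters neurons and glia through membrane transporters and binds nuclear receptors, the products of Thra and Thrb. Without hormone these receptors hold target genes down together with corepressors, and with hormone they recruit coactivators. PTU blocks hormone synthesis in the thyroid, so genes that the hormone raises are low in PTU-treated animals. Hairless is a corepressor that binds TH receptors, and its own gene is a hormone target in brain, which makes it both part of the feedback and a readout of it.

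No gene differed between mutant and WT striatum under PTU beyond the spread between libraries. Of 15670 genes tested, 0 (0%) passed an adjusted p below 0.05 in edgeR's quasi-likelihood F test with Benjamini-Hochberg adjustment. At an unadjusted p below 0.05 there were 714 genes (4.56%), of which 401 were higher (2.56%) and 313 lower in mutant striatum. DESeq2 called 2 genes, Gkn3 and the Y-linked Ddx3y. Without mutant replicate 1 the edgeR test again called 0 genes (0%) of 15870, with 557 (3.51%) at an unadjusted p below 0.05, and DESeq2 called Ddx3y alone. The median size of the log2 difference was 0.12, its median standard error (SE) was 0.17, and the 95% interval lay within 1 log2 unit on either side of 0 for 13311 genes (84.9%). A miss of the threshold therefore bounds the difference to below 2-fold for most genes, and does not show that the genotypes were alike.

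Before single genes are described, the libraries need describing, because several stood apart. Gene totals ran from 9.47 to 13.7 M counts. WT replicate 2 had 4.98% of its reads outside annotated genes, against 9.56 to 12.2% in the other 7. Of the other 16 libraries some had 4.46 to 6.03% and the rest 8.52 to 11.4%. The low ones were untreated WT replicate 4 and mutant replicates 1, 3 and 4, and PTU+TH replicates 1 and 2 of both genotypes. The main axis of variation over the 24 libraries held 32.8% of the variance. On it these and WT replicate 2 stood at 20.8 or above and all others at -3.54 or below. This split enters the spread that all groups share. Replicates named below without a treatment are those under PTU. The Y-linked gene Ddx3y, which marks male tissue, stood at 98.7 and 81.5 CPM (counts scaled to library size with TMM factors, per 1 M) in mutant replicates 1 and 2, and at 0 in mutant replicates 3 and 4 and in the 4 WT libraries. Xist, the RNA of the inactive X chromosome, was the reverse, with 878 and 919 CPM in mutant replicates 3 and 4, 457 to 1168 in WT, and at most 0.0900 in mutant replicates 1 and 2. All 4 WT libraries thus had the female pattern and the mutant libraries were split evenly, so any difference that involves mutant replicates 1 and 2 is also a difference of sex. With a term for Y-linked counts in the fit, 0 genes were called between the genotypes, and 8 genes were called for the term itself. At an unadjusted p below 0.05 there were 1174, with 3.81% of all genes higher and 3.68% lower in mutant. Without mutant replicates 1 and 2, 0 genes were called and 1322 had an unadjusted p below 0.05, with 3.23% higher and 4.98% lower. Both fits had larger shares at that level than the fit of all libraries without the term, at 2.56% higher and 2% lower.

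The labels also call all 8 libraries hypothyroid, and the expression of hormone-responsive genes did not sort them that way. Over 27 brain genes known to rise with TH, the median log2 level relative to the mean of the 8 untreated striatum libraries was -0.50, -0.40, -0.44 and -0.60 in WT replicates 1 to 4 under PTU. It was 0.04, -0.13, -0.34 and -0.35 in mutant replicates 1 to 4. The untreated libraries ran from -0.15 to 0.15 on this scale. The WT libraries were all below that range, mutant replicates 1 and 2 were inside it, and mutant replicates 3 and 4 lay between it and WT. Over 13 brain genes known to fall with TH the same medians were 0.20, 0.26, 0.26 and 0.19 in WT and -0.13, 0.05, 0.16 and 0.13 in mutant, so that mutant replicate 1 was again outside the WT range by the most. One library outside the comparison ran the other way: mutant PTU+TH replicate 1 stood at -0.44 for the first list and at 0.31 for the second, where the other PTU+TH libraries ran from -0.08 to 0.23 and from -0.35 to 0.04. Mutant PTU replicate 1 and mutant PTU+TH replicate 1, which both have Y-linked counts, thus each stood at the level of the other's treatment. Nothing in the files checks their labels, so all values here take the labels as given, and whether the labels of these libraries hold was not tested. Without both, 0 genes were called in the PTU comparison and 679 had an unadjusted p below 0.05, with 2.38% of all genes higher and 1.91% lower.

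**Figure D1:**
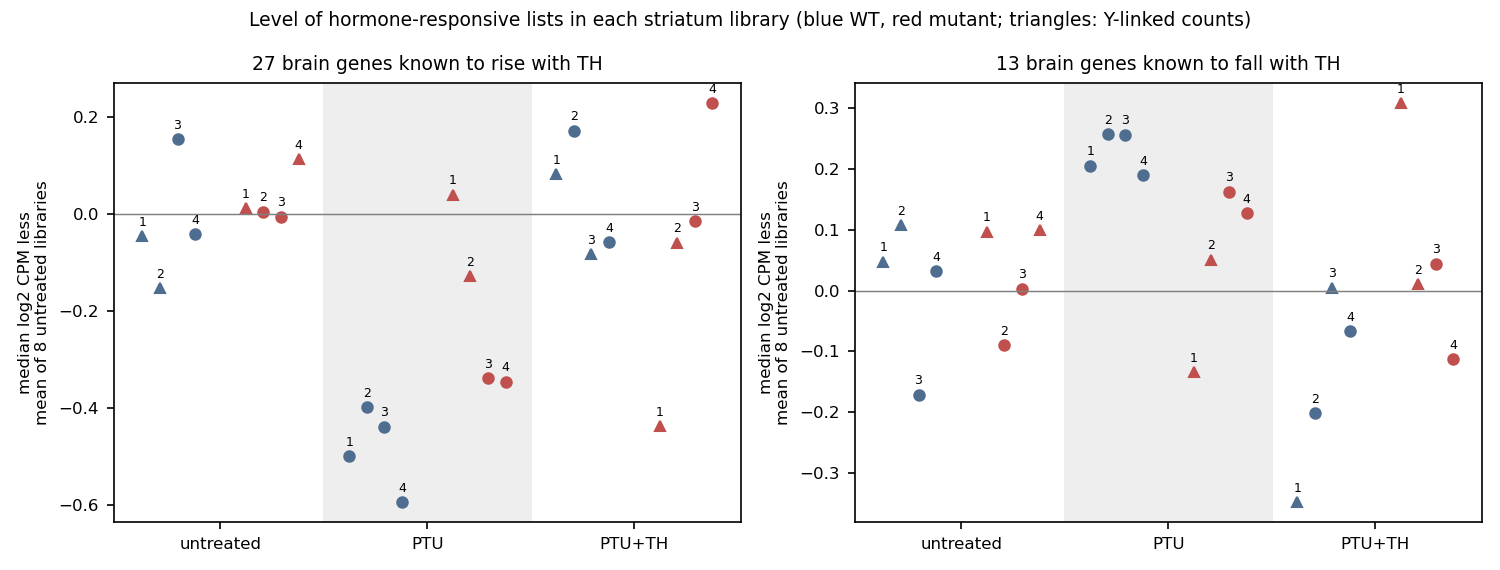
Median log2 CPM of the genes known to rise (left) and to fall (right) with TH in each of the 24 striatum libraries, less the mean of the 8 untreated libraries; each point is a library, numbered by replicate, and triangles have Y-linked counts. Under PTU (grey) the WT libraries form a low group on the left panel, from -0.60 to -0.40, while the mutant libraries spread from -0.35 to 0.04.

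The genes with the lowest p on the higher side included several that were low in all 4 WT libraries and spread widely in the mutant. Ace, the angiotensin-converting enzyme, had 9.21, 9.36, 11.4 and 17.6 CPM in WT replicates 1 to 4 and 110.0, 41.3, 42.1 and 12.4 in mutant replicates 1 to 4. Mutant replicates 1, 2 and 3 were above every WT library and mutant replicate 4 was inside the WT range, so the groups overlapped. The log2 difference was 2.12 ± 0.57 (SE; unadjusted p = 0.00139, adjusted p = 1.00 in edgeR), and 1.42 ± 0.56 without mutant replicate 1. Untreated striatum had 49.3 to 128 CPM in WT and 49.9 to 136 in mutant, so mutant replicate 1 was within the untreated range and replicates 2 and 3 were just below it.

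Cyp2s1, a cytochrome P450, had 4.24, 1.59, 5.22 and 7.66 CPM in WT and 40.2, 25.9, 25.7 and 4.32 in mutant. The same 3 mutant libraries were high and replicate 4 sat among the WT values, with a log2 difference of 2.38 ± 0.65 (2.01 ± 0.68 without mutant replicate 1). Gkn3, a gastrokine gene expressed in brain vessels, had few counts, with 0, 4, 4 and 1 in WT and 44, 23, 29 and 3 in mutant. Mutant replicate 1 was again the highest and replicate 4 the lowest of the mutant libraries. The log2 difference of Gkn3 was 3.43 ± 0.93 in edgeR, and Gkn3 was among the 2 genes that DESeq2 called with all 8 libraries.

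Gpr139, an orphan G protein-coupled receptor of the striatum and habenula, had 10.3, 6.87, 14.0 and 11.2 CPM in WT and 43.1, 31.7, 14.8 and 9.16 in mutant. Here only mutant replicates 1 and 2, the libraries with Y-linked counts, stood clear of WT, and replicate 3 was barely above it. The log2 difference of 1.23 ± 0.34 came to 0.81 ± 0.32 without mutant replicate 1. The uncharacterized gene C030013G03Rik had 0.921 to 1.54 CPM in WT and 7.29, 3.96, 3.52 and 0.793 in mutant, which puts replicate 4 below all WT libraries.

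Many, but not all, genes of the list known to rise with TH were highest in mutant replicate 1 and lowest in mutant replicate 4 among the mutant libraries, in 10 of 27 members against 11.6% of all genes tested. With all 8 libraries 9 of the 27 were higher in mutant at an unadjusted p below 0.05 and 0 were lower, against 2.56% higher and 2% lower over all genes tested. The median log2 difference of the list was 0.23, and that of all genes was -0.00. With mutant replicate 1 left out the count was 3 higher (background 1.71%) and 0 lower (background 1.8%), and the median was 0.19. Leaving out any other library of the comparison gave 7 to 9. Without mutant replicates 1 and 2 the count was 0 (3.23% of all genes) with a median of 0.17, and with a term for Y-linked counts it was 9 (3.81% of all genes) with a median of 0.25. None of the 27 passed the adjusted threshold. The list was chosen with earlier results of these data known, so the shares over all genes are not an independent background for its counts.

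Gbp3, a guanylate-binding protein used as a hormone target in mouse brain, had 2.76, 3.55, 3.34 and 2.99 CPM in WT and 13.6, 7.56, 7.78 and 3.26 in mutant. Sema7a, a membrane-anchored semaphorin that guides axons, had 42.9, 47.9, 46.5 and 60.4 CPM in WT and 132, 93.7, 94.4 and 49.4 in mutant. In both genes mutant replicate 1 was highest, replicates 2 and 3 were close to each other, and replicate 4 was inside the WT range. The log2 differences were 1.34 ± 0.39 for Gbp3 and 0.90 ± 0.27 for Sema7a, with unadjusted p of 0.00227 and 0.00266. Without mutant replicate 1 they were 0.95 ± 0.39 and 0.67 ± 0.27.

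Shh, the secreted morphogen sonic hedgehog, had 1.57, 2.11, 1.88 and 1.79 CPM in WT and 11.2, 5.97, 4.26 and 2.55 in mutant. It was one of the members whose groups did not overlap, as was Itih3, a hyaluronan-binding protein, with 5.99 to 7.93 CPM in WT and 8.95 to 15.5 in mutant. Gpr83, an orphan G protein-coupled receptor of the same list, separated the other way, at 134, 122, 126 and 137 CPM in WT and 108, 120.2, 113 and 117 in mutant (log2 difference -0.18, unadjusted p = 0.233). Untreated WT striatum had 89.0 to 121 CPM of Gpr83, below all 4 WT PTU libraries, so in these libraries it was not low under PTU. Its mutant PTU values were within that untreated range. Non-overlap was found for 1.23% of all genes tested in the higher and 1.31% in the lower direction. In Itih3 mutant replicate 4 was the second highest of the mutant libraries. The log2 difference of Shh was 1.69 ± 0.56, or 1.20 ± 0.58 without mutant replicate 1.

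Kcnj10, the inward-rectifier potassium channel of astrocytes, had 78.3, 109, 98.5 and 101 CPM in WT and 192, 173, 132 and 99.3 in mutant. Klf9, a zinc-finger transcription factor that TH receptors activate directly, had 406, 412, 472 and 448 CPM in WT and 659.6, 624, 613 and 408 in mutant. Nrgn, the calmodulin-binding postsynaptic protein neurogranin, had 974, 1046, 818 and 1041 CPM in WT and 1950.4, 1130.1, 1374 and 1046 in mutant. In Klf9 and Kcnj10 mutant replicates 1 to 3 were above WT. In Nrgn only mutant replicate 1 reached the untreated level of 1808 to 2287 CPM, and replicates 2 and 3 were a little above WT. The log2 differences were 0.63 ± 0.23, 0.41 ± 0.17 and 0.50 ± 0.20 for Kcnj10, Klf9 and Nrgn, and without mutant replicate 1 they were 0.47 ± 0.24, 0.32 ± 0.18 and 0.27 ± 0.19, with unadjusted p of 0.0619, 0.0835 and 0.151. Flywch2 and Tbc1d4, the other members under an unadjusted p of 0.05, had log2 differences of 1.69 ± 0.62 and 0.37 ± 0.16, and Tbc1d4 was highest in mutant replicate 2.

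**Figure D2:**
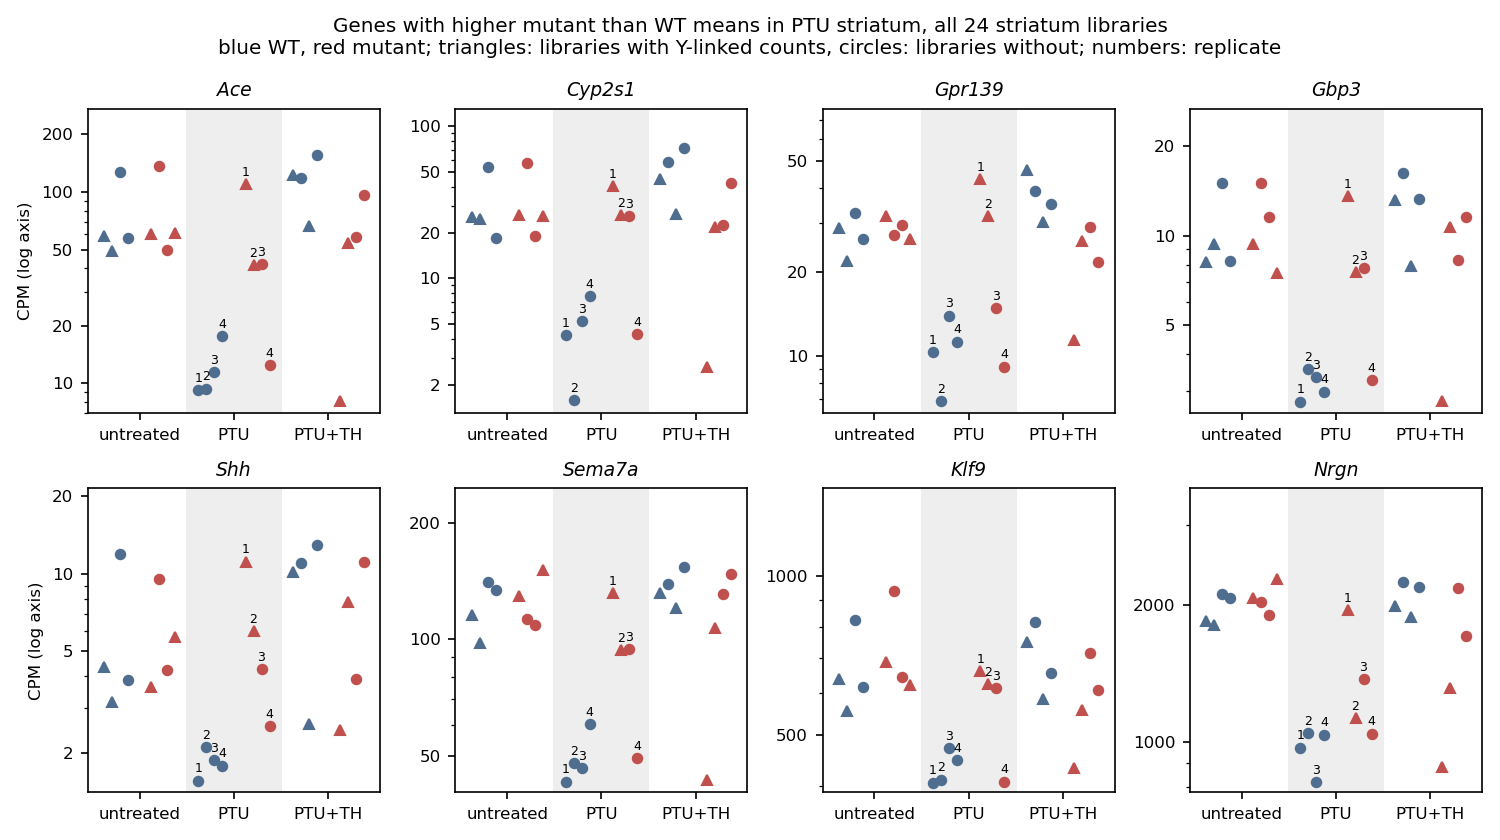
CPM on a log axis of 8 genes with higher mutant than WT means under PTU, in each of the 24 striatum libraries; points are libraries (blue WT, red mutant, triangles with Y-linked counts) and numbers give the replicate within the PTU groups (grey). Mutant PTU replicate 1 lies within or above the untreated range for all 8 genes, replicate 4 lies at or near the WT PTU libraries, and the low red triangle under PTU+TH is mutant replicate 1 of that group.

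Not every hormone target in the list was at an unadjusted p below 0.05. Rasd2, a small GTPase of striatal projection neurons whose RNA depends on TH, had a log2 difference of 0.23 ± 0.18 (unadjusted p = 0.230). It had 487, 435, 562 and 652 CPM in WT and 730, 760, 630 and 376 in mutant. Mutant replicates 1 and 2 were thus above every WT library, and mutant replicate 4 was at the lowest value of the 8 libraries. Mbp, myelin basic protein, differed by 0.19 (unadjusted p = 0.342), and Stard4, Cxadr and Thrsp differed by 0.02, -0.04 and -0.04. Cxadr and Thrsp did not rise with TH in the WT libraries. Cxadr had 22.2 to 43.9 CPM in WT PTU and 13.3 to 32.3 in WT PTU+TH striatum, and Thrsp had 4.68 to 7.17 and 4.02 to 5.74. Of the 13 genes known to fall with TH, Slc1a3, the astrocyte glutamate transporter, and Cirbp, a cold-induced RNA-binding protein, were lower at an unadjusted p below 0.05, and 0 were higher. Over all genes tested 2% were lower and 2.56% higher at that level. Slc1a3 had 547, 599.6, 723 and 564 CPM in WT and 432, 534, 531 and 516 in mutant, with a log2 difference of -0.27 ± 0.13. All its mutant values were below all WT values, which held for 1.31% of all genes tested. Leaving out mutant replicate 1 left none of the 13 at an unadjusted p below 0.05 (background 1.8% lower and 1.71% higher). It moved the median of the list from -0.15 to -0.07, and leaving out mutant replicates 1 and 2 moved that median to 0.04.

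A second, wider set was drawn from WT striatum: 161 genes that passed the edgeR test as higher with PTU+TH than with PTU in a fit of the 12 WT libraries. Choosing on the WT PTU libraries favours genes that are low there, so the position of the mutant libraries against WT is partly fixed by the choice and only the order among mutant libraries is described. Of the 161 genes, 156 were above all 4 WT PTU libraries in mutant replicate 1, 148 in replicate 2, 129 in replicate 3 and 31 in replicate 4. Over all genes tested these shares were 23.1, 14.8, 22.9 and 17.1%, but those genes were not chosen on the WT PTU libraries. They are therefore no background for the size of the counts among the 161. Mutant replicate 4 had 46 of the 161 below all WT PTU libraries, and mutant replicates 1 and 2 had 0.

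Hr itself did not differ beyond its spread under PTU. It had 7.92, 10.2, 12.5 and 14.3 CPM in WT and 16.3, 15.2, 19.0 and 11.2 in mutant, so 3 of the 4 mutant libraries were above WT and replicate 4 was within it. The log2 difference was 0.45 ± 0.37 with a 95% interval from -0.31 to 1.22 (unadjusted p = 0.233), and 0.41 ± 0.41 without mutant replicate 1. With the term for Y-linked counts it was 0.68 (unadjusted p = 0.0772). Gene counts do not show a single-nucleotide deletion, so these values do not check the genotype labels. Of 60 annotated genes within 1 Mb of Hr, 41 were in the files and 20 were tested. Among these Dmtn, the actin-bundling protein dematin, was the only one with an unadjusted p below 0.05. Over all genes tested 4.56% were at that level in either direction, so 1 of 20 is near that share. Dmtn had 212, 233, 241 and 285 CPM in WT and 395, 358, 377 and 252 in mutant. Mutant replicates 1 to 3 were above WT and replicate 4 was within it, and its untreated level was 312 to 424 CPM.

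The machinery of TH action showed no gene past the adjusted threshold among 21 tested. Neither receptor gene moved by more than its error, with log2 differences of -0.07 ± 0.12 for Thra and 0.02 ± 0.15 for Thrb, with 95% intervals of -0.32 to 0.18 and -0.28 to 0.32. Without mutant replicate 1 Thrb was at -0.13, so its sign is not settled. Dio2, the deiodinase that activates the hormone, had 156, 155, 129 and 152 CPM in WT and 87.8, 118, 153 and 146 in mutant. The lower mutant libraries were replicates 1 and 2, while replicates 3 and 4 were within the WT range. Dio3, the deiodinase that inactivates the hormone, had 1, 1, 2 and 2 counts in WT and 56, 4, 9 and 3 in mutant. Its fitted log2 difference was 3.51 ± 2.14 (unadjusted p = 0.0521), and 1.76 ± 2.24 without mutant replicate 1, so a single library carried most of it. Crym, the cytosolic TH-binding protein mu-crystallin, was the only member with an unadjusted p below 0.05, at -0.41 ± 0.20 (unadjusted p = 0.0491). That is 1 of 21, near the 4.56% of all genes tested that were at that level in either direction. The transporter gene Slco1c1 was at -0.19 ± 0.14. The corepressor-associated deacetylase Hdac3 was at -0.19 ± 0.11, and at -0.33 ± 0.11 without mutant replicate 1 (unadjusted p = 0.00579).

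**Figure D3:**
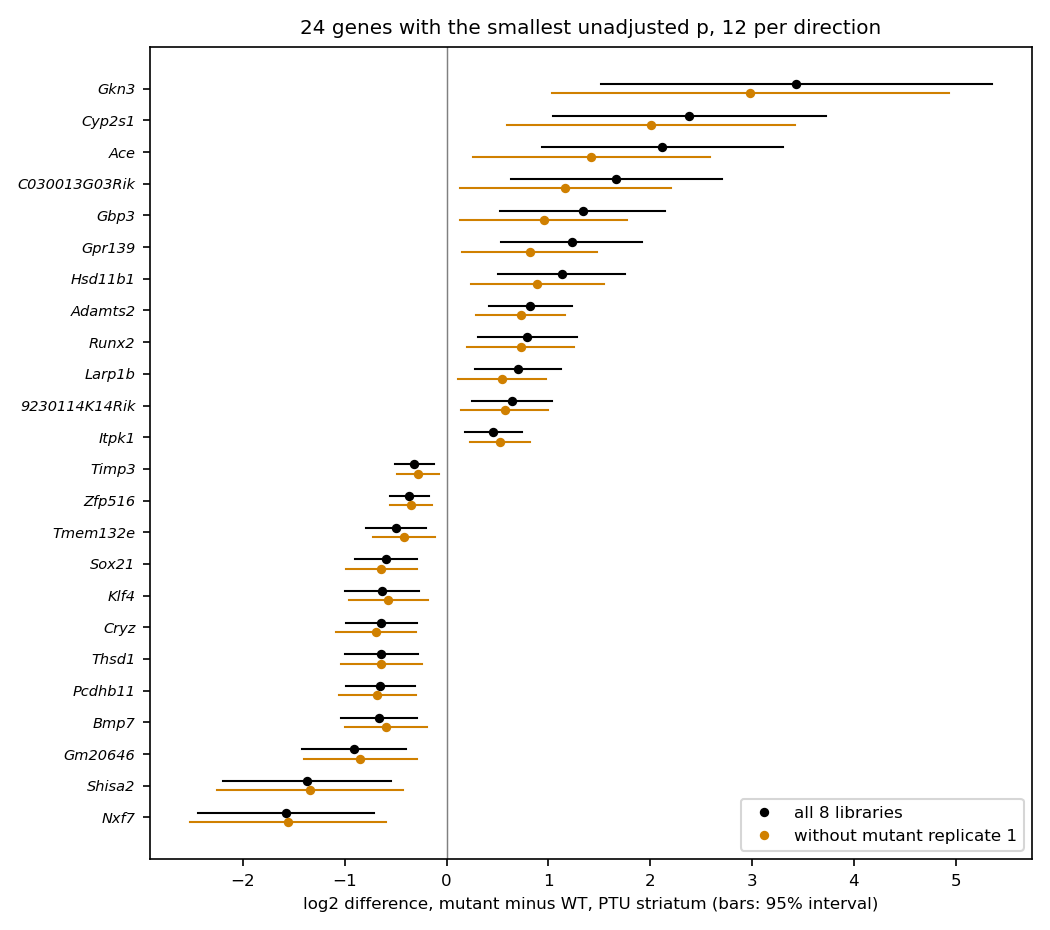
Log2 difference, mutant minus WT, in PTU striatum for the 12 genes with the smallest unadjusted p in each direction, with 95% intervals, for all 8 libraries (black) and without mutant replicate 1 (orange). Ace shows the largest shift among the higher genes, from 2.12 to 1.42, while the lower genes shift little, for example Nxf7 from -1.58 to -1.56. None of the 24 passed the adjusted test.

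On the lower side the groups overlapped in fewer of the genes with the smallest p. Without mutant replicate 1 all 12 kept their sign, as did the higher genes. The groups did not overlap in 11 of the 12 lower genes, the exception being Shisa2. Their choice by p makes such separation likely, and over all genes tested 1.31% did not overlap in this direction. Nxf7, a member of the nuclear RNA export factor family, had 3.87, 4.08, 3.17 and 2.79 CPM in WT and 1.08, 1.08, 1.17 and 1.32 in mutant. All 4 mutant libraries were tightly placed below all 4 WT libraries, with a log2 difference of -1.58 ± 0.42 (95% interval -2.44 to -0.71). Untreated and PTU+TH striatum had 0.197 to 2.92 CPM of Nxf7, so 3 of the 4 WT PTU libraries were above every one of those.

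Bmp7, a secreted bone morphogenetic protein, had 11.1, 11.1, 11.3 and 10.7 CPM in WT and 5.76, 6.26, 7.88 and 8.01 in mutant. Tmem132e, a single-pass neuronal membrane protein, had 16.1, 16.5, 17.2 and 16.7 CPM in WT and 9.54, 11.4, 13.3 and 13.1 in mutant. In both, the WT libraries were close together and above every mutant library, and untreated WT striatum was near the mutant values, at 6.34 to 8.27 CPM for Bmp7 and 8.89 to 13.2 for Tmem132e. The log2 differences were -0.67 ± 0.18 and -0.49 ± 0.14.

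Sox21, a transcription factor of neural progenitors, had 8.38, 10.5, 8.91 and 8.26 CPM in WT and 6.39, 5.33, 5.86 and 6.34 in mutant. For Sox21 the mutant PTU libraries were low against untreated WT striatum too, which had 7.39 to 8.82 CPM. The log2 difference was -0.59 ± 0.15, and -0.64 ± 0.17 without mutant replicate 1, the smallest unadjusted p of the lower genes in both fits (5.67e-04 and 9.45e-04). Klf4, a zinc-finger transcription factor, had 9.67, 10.4, 9.76 and 8.46 CPM in WT and 5.13, 5.40, 8.10 and 6.16 in mutant. Timp3, a tissue inhibitor of metalloproteinases, had 162, 184, 192 and 165 CPM in WT and 127, 142, 143 and 152 in mutant. Their log2 differences were -0.64 ± 0.18 and -0.32 ± 0.09. The rest of the lower 12 were Pcdhb11, Zfp516, Cryz, Gm20646, Thsd1 and Shisa2, at -1.37 to -0.37.

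**Figure D4:**
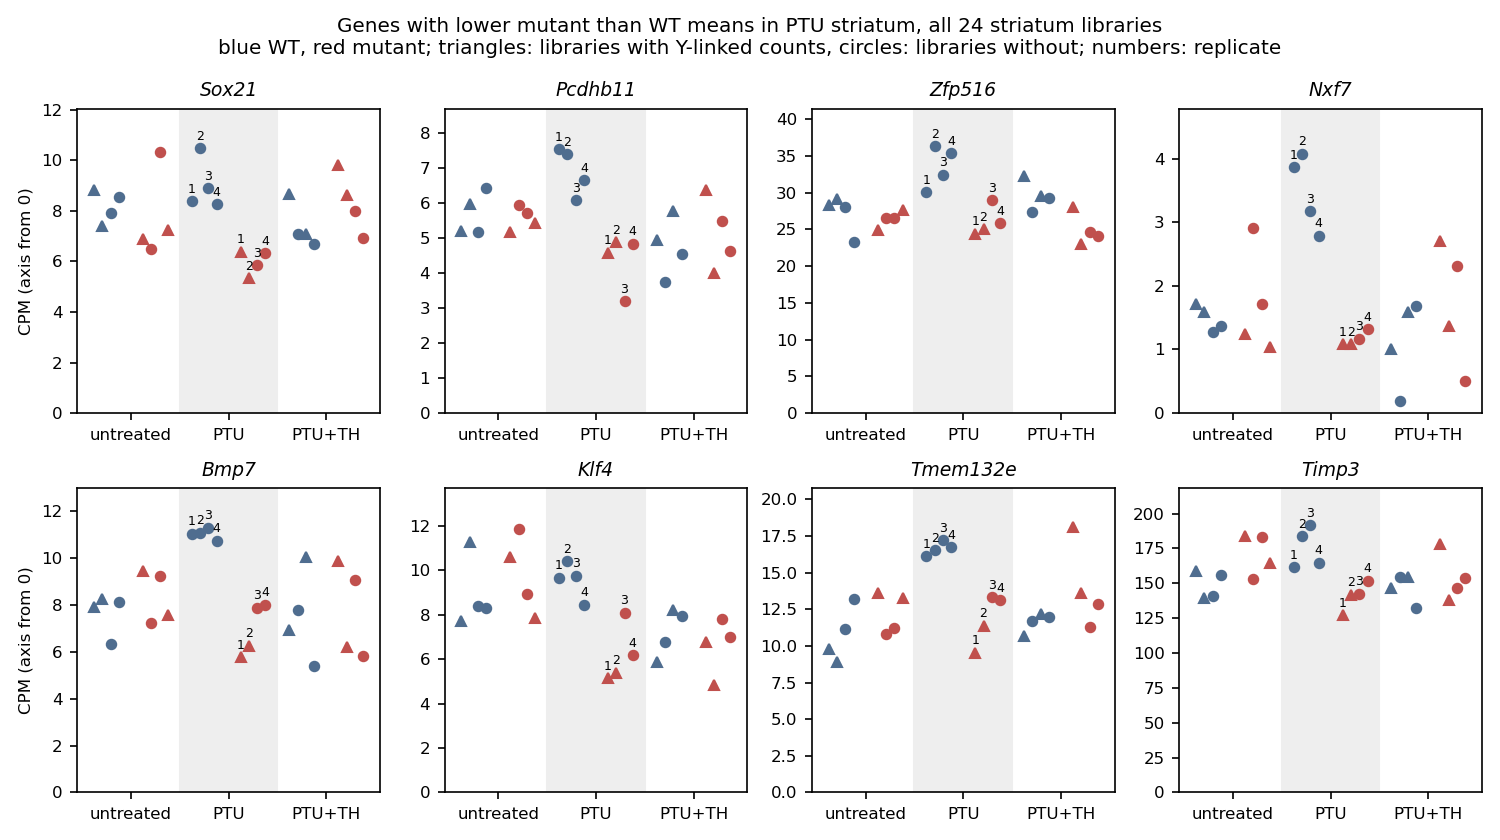
CPM, on axes from 0, of 8 genes with lower mutant than WT means under PTU, in each of the 24 striatum libraries, with colours, shapes and numbers as in the plot of higher genes. The 4 mutant PTU libraries lie below the 4 WT PTU libraries in each panel; for Nxf7 the WT PTU libraries, at 2.79 to 4.08, are above nearly all untreated and PTU+TH libraries.

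Among the higher genes with small p, those whose groups did not overlap were Adamts2, Hsd11b1, Larp1b, Itpk1, 9230114K14Rik and Runx2. Choice by p makes such separation likely here too, and over all genes tested 1.23% did not overlap in this direction. Adamts2, a procollagen protease, had 5.89, 3.77, 4.03 and 5.18 CPM in WT and 9.72, 6.98, 10.0 and 6.69 in mutant, a log2 difference of 0.82 ± 0.20. Hsd11b1, which regenerates active glucocorticoid, had 2.49, 2.04, 1.37 and 1.49 CPM in WT and 5.85, 4.10, 3.09 and 3.17 in mutant, a difference of 1.13 ± 0.30. With mutant replicate 1 left out these were 0.73 and 0.89. Leaving out that library changed 12 of the 24 named genes: the ones that entered included Cplx3, a complexin of excitatory and retinal synapses, at 2.23 to 5.43 CPM in WT and 8.64 to 12.0 in mutant (1.56 without mutant replicate 1), and Greb1l, at 0.95.

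The same genotype comparison in other libraries gave little overlap with these 24 genes. In untreated striatum 17 of the 24 differed in the same direction and 0 of those had an unadjusted p below 0.05, while Timp3 was opposite, at 0.20 (unadjusted p = 0.0430), and 0 genes (0%) passed the adjusted test there, with 2.16% at that unadjusted level. In PTU+TH striatum 5 of the 24 had the same direction, 1 of them at an unadjusted p below 0.05, and 2 were opposite at that level, which 3.47% of all genes reached. In heart under PTU, 15 of the 24 were tested and 10 had the same direction, 4 of them at an unadjusted p below 0.05, which 17.5% of all genes in heart reached. Heart differed from striatum in its counts, with 311 genes called (2.2%) of 14156, against 0 in striatum. The heart comparison had 7 libraries, fewer of them mutant than WT. Its count ran from 78 to 324 over the libraries left out, the 78 without heart mutant PTU replicate 1. Y-linked counts were not examined in heart. Among the named genes that heart called were Gbp3, at 1.00, Larp1b, at 0.77, and Bmp7, at -1.09, with adjusted p of 0.0308, 0.0314 and 0.0321 in edgeR, and from the hormone list Klf9 was called at 1.498 with an adjusted p of 0.0292. Whether the genotype difference itself differed between heart and striatum was not tested.

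The genotype difference under PTU was also set against that in the other treatments. Against untreated striatum 0 genes were called for the interaction (0%), with 352 at an unadjusted p below 0.05 (2.25%). Against PTU+TH striatum 0 were called (0%), with 920 at that level (5.87%), and DESeq2 called 3 genes, Aff3, Fgf16 and Gkn3. Both tests use the same 8 PTU libraries, and mutant PTU+TH replicate 1 enters the one against PTU+TH. For Ace the difference of differences was 3.22 in log2 (unadjusted p = 0.000492, adjusted p = 0.541), and mutant PTU+TH replicate 1 had 8.10 CPM where the other 3 mutant PTU+TH libraries had 54.1 to 96.2. Gpr139 gave 2.01 and Cyp2s1 3.56, with the same adjusted p of 0.541, and in both mutant PTU+TH replicate 1 was the lowest of its group.

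Markers of cell types were compared as lists, since bulk counts cannot tell fewer cells of a type from less RNA per cell. The tissue had the markers of striatum, with Ppp1r1b, the dopamine-regulated phosphoprotein DARPP-32, at 1394 to 2012 CPM, and Drd1, Drd2 and Adora2a all present in each library. Among 32 markers of striatal projection neurons 0 were higher and 1 was lower at an unadjusted p below 0.05 (2% of all genes were lower), with a median log2 difference of -0.12. That gene was Tac1, the substance P precursor of direct-pathway neurons, at 281, 288, 240.4 and 197 CPM in WT and 181, 184, 151 and 164 in mutant. All mutant values were below all WT values, and the log2 difference was -0.57 ± 0.22 (unadjusted p = 0.0178). Penk, the enkephalin precursor of indirect-pathway neurons, and Ido1 also did not overlap, at log2 differences of -0.23 and -0.33 (unadjusted p = 0.151 and 0.115). Non-overlap in this direction thus held for 3 of the 32 markers, and for 1.31% of all genes tested. Without mutant replicate 1 there were 4 lower members (1.8% of all genes), among them Drd1 at -0.47, and without mutant replicates 1 and 2 there were 11 (4.98% of all genes). The summed CPM of the list was 13380 to 14472 in WT and 15009, 14042, 12972 and 10978 in mutant replicates 1 to 4, so mutant replicate 4 was the lowest.

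Markers of cortical excitatory neurons stood at a median of 0.47 over 21 genes, with Rasgrf2 and Nr4a2 higher at an unadjusted p below 0.05 and 0 lower, against 2.56% and 2% of all genes. Their summed level was 971 to 1420 CPM in WT and 1081 to 1482 in mutant, and the groups overlapped. Slc17a7, the vesicular glutamate transporter that marks cortical neurons, had 44.6, 145, 59.4 and 36.3 CPM in WT and 132, 70.5, 188 and 185 in mutant. Mutant replicate 2 was the low mutant library and WT replicate 2 the high WT library; without WT replicate 2 the count was 12 higher (3.46% of all genes) and without mutant replicate 2 it was 9 (3.24%), and without WT replicate 1 or WT replicate 4 it was 0 (1.55% and 3.23%), so these libraries decide it. Bdnf, a neurotrophin made by cortical neurons, followed the same libraries, with 1.29, 5.06, 4.20 and 1.09 CPM in WT and 9.63, 2.09, 10.7 and 8.89 in mutant. The part of cortical tissue in these differences was not tested.

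Immediate early genes, which neurons switch on with activity, had a median of -0.33 over 21 genes, with 4 lower (Klf4, Nr4a3, Fosl2 and Fosb) and 2 higher (Ier5 and Nr4a2) at an unadjusted p below 0.05, against 2% and 2.56% of all genes. Their summed level was highest in WT replicate 2, at 1809 CPM, against 896 to 1271 in the other 7, and without that library the count was 1 lower (1.84% of all genes) and 2 higher (3.46%). The lists of nuclear oxidative phosphorylation, mitochondrially encoded genes, ribosomal proteins, cholesterol synthesis, cell division, extracellular matrix and myelin had 0 members at an unadjusted p below 0.05, with medians from -0.10 to 0.14. Of 19 markers of microglia and macrophages and 19 of endothelial cells and pericytes, likewise, 0 were at that level.

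**Figure D5:**
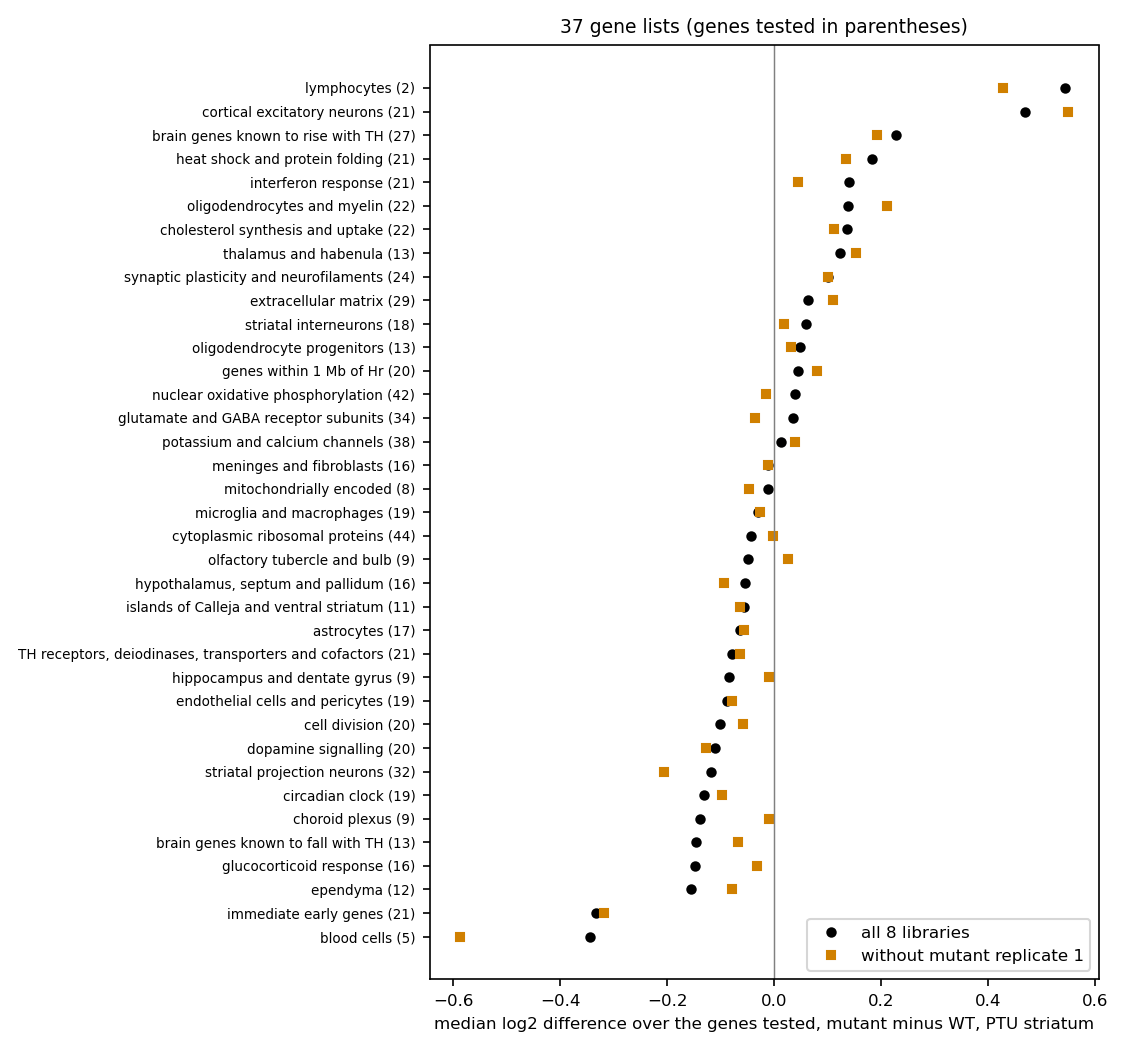
Median log2 difference, mutant minus WT, under PTU for 37 gene lists, over the genes tested in each, with all 8 libraries (black) and without mutant replicate 1 (orange). The genes known to rise with TH stand at 0.23 and 0.19 and the cortical excitatory markers at 0.47 and 0.55, while most other lists lie within 0.2 of 0; the immediate early genes are at -0.33, and the outermost lists, blood cells at -0.34 and lymphocytes at 0.54, rest on 5 and 2 genes.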

How the data were processed

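Each library was analysed from its deposited count table, in which the values are whole-number counts not normalized by the authors (57010 gene lines; the 5 lines for reads given to no gene were left out). Bowtie2, HTSeq and build GRCm39 are named, per the submitters' processing notes. The strand setting was not given in the sources used here, so genes with exons on the opposite strand may share counts. Of the genes named this holds for Ace, Bdnf, Cryz, Cxadr, Cyp2s1, Dio2, Ncoa3, Ncor1, Penk, Ppp1r1b, Runx2, Shh, Sox21, Thra, Timp3 and Xist, by GENCODE M21 on GRCm38, at 50 bases or more.

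The 24 striatum libraries were fitted with 1 coefficient per group in edgeR 4.0.16 (R 4.3.3): filterByExpr with a minimum count of 10, TMM factors, two-sided quasi-likelihood F test, Benjamini-Hochberg adjustment. DESeq2 1.42.0 was the alternative tool, and heart was fitted alone. SE and 95% intervals come from the quasi-likelihood fit; list medians by library use log2 CPM with a prior count of 2. With 4 against 4 an exact permutation test cannot go below p = 0.0286. Comparison, members and lists were chosen with earlier results of these data known. The genes named are Hr, up to 12 genes per direction with the smallest p and a mean of at least 1 CPM, with and without mutant replicate 1, the genes of TH action, and list members; since no gene passed the test, those filling the 12 are given as not passing. Ddx3y, Xist, Slc17a7, Ppp1r1b and Bdnf were added after their values were seen. The steps were tested on simulated counts.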

Additional observations from a re-analysis of the deposited data

Results flagged for a closer look

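In 87 genes examined in both PTU groups, or 174 groups of 4 libraries, 5 held a library set apart from the other 3 by more than Dixon's 95% limit, a share of 2.87%; chance alone gives about 1 in 20. Dio3 stood at 5.04 CPM in mutant replicate 1, against 0.264 to 0.959 in the other 3 mutant libraries. Ncoa3, a nuclear receptor coactivator, was low in the same library, at 48.8 CPM against 58.6 to 60.5. Rxrb, a retinoid X receptor, was low in mutant replicate 4, at 33.4 CPM against 38.2 to 39.0. In WT, Dio2 was low in replicate 3, at 129 CPM against 152 to 156, and Gm14418 was low in replicate 1, at 0.737 CPM against 1.29 to 1.37.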

How the results depend on the processing

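The count of 0 genes called under PTU was unchanged with RLE factors, a mean of at least 1 CPM, robust estimation, a fit of the 8 libraries alone, the share of reads outside genes as a covariate, each library left out in turn and the pairs left out together. It moved to 5 with no filter (Ace, Cyp2s1, Fgf16, Gkn3 and Gpr139) and to 2 with DESeq2, and to 1 with DESeq2 without mutant replicate 1. Against PTU+TH it was 24 with no filter, 3 with DESeq2 and 0 to 3 over the libraries left out, the 3 without mutant PTU replicate 4. The comparison in PTU+TH gave 1 with RLE factors, 1 with a mean of at least 1 CPM, 1 with DESeq2 and 6 with no filter. Heart gave 482 with no filter, 585 with DESeq2 and 78 (without mutant replicate 1) to 324 over the libraries left out. The replicate block gave 0 calls in each striatum comparison and 388 in heart; in PTU striatum same-numbered libraries correlated at -0.03 to 0.16, so numbers do not pair them. The cause was not tested.

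Of 87 single genes under 21 settings, 8 with differences near 0 changed sign, and 19 of 37 list medians did so in 52 of 777 cases, among them the genes known to fall with TH. Slc3a2 was -0.00262 with a mean of at least 1 CPM. With mutant replicate 1 and WT replicate 2 left out, Thra was 0.0252, Thrb -0.0496, Slc7a5 0.0317, Slc7a8 0.0329 and Ncor1 0.00830. With mutant PTU 1 and mutant PTU+TH 1 left out they were 0.0134, -0.117, 0.0767, 0.0175 and 0.0302. With mutant replicates 1 and 2 left out, Thra was 0.0774, Thrb -0.29, Slc16a10 0.19, Slc7a8 0.13 and Ncor1 0.0566. With the Y-linked term Thrb was -0.0532 and Slc7a5 0.00761. Over the libraries left out in turn, Thrb ran from -0.135 to 0.114, Slc16a10 from -0.461 to 0.278, Slc7a5 from -0.0960 to 0.0928, Slc3a2 from -0.0679 to 0.0614, Ncor1 from -0.136 to 0.0120 and Ncoa3 from -0.0229 to 0.133.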
